A study of Homo sapiens with 18 samples.

Results

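The comparison described here is the effect of bFGF (basic fibroblast growth factor, the protein FGF2) on neuroepithelial cells, averaged over 2 culture days. The cells were made from H9, an established human embryonic stem (ES) cell line, and total RNA pools were measured on 1-colour Affymetrix arrays. All arrays of day 10 and day 17 were used, which are 12 of the 18 in the series. The bFGF arm held 6 arrays, 3 at day 10 and 3 at day 17, and the untreated arm held 3 at each of the same days. The remaining 6 arrays, of ES cells and of day 6 embryoid bodies, have no bFGF arm and are given only as levels for context. Both arms shared the H9 cells and the differentiation to day 6, and differed in the bFGF given from day 6 to harvest. Most titles of the day 10 arrays call the cells primitive, and those of the day 17 arrays call them definitive neural epithelium. The sample labels give 20 ug/ml bFGF for day 10 and 20 ng/ml for day 17, and which unit was meant at day 10 was not resolved. Each array is an RNA pool of 1 cell line. The labels do not say whether the neuroepithelial pools came from separate cultures. The p-values below rest on the spread left between arrays after day, pool number and bFGF were fitted, which may be technical.

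FGF2 is a secreted protein that binds FGF receptors, which are tyrosine kinases, and switches on the RAS and ERK kinase cascade. ERK signalling raises ETS-family transcription factors such as ETV4 and ETV5, and it also raises its own brakes, among them the sprouty proteins and the phosphatase DUSP6. In neural cultures FGF2 is widely used to keep precursors dividing, and in the embryo FGF signals from the isthmus pattern the midbrain and anterior hindbrain. FGF2 also acts on mesenchyme and on the endothelium of blood vessels.

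The 12 arrays had been scaled to 1 level, with a 2% trimmed mean signal between 150.016 and 150.022. In each of the 4 groups pool 2 differed from the rest in its low signals, with medians of 48.7 to 50.8 against 28.3 to 32.7 on the other 8 arrays. These 4 arrays lie equally in both arms, and pool number was a term of the model. The summed signal of 7 neuroepithelial markers (SOX1, SOX2, PAX6, NES, ZIC1, FABP7 and CDH2) was 21099 to 25982 with bFGF and 21171 to 29903 without it at day 10. At day 17 it was 28528 to 33810 with bFGF and 25497 to 31292 without it. The same sum was 7039 to 8695 on the ES arrays, so neuroepithelial markers were present in both arms. No detection calls were used, so a low signal has no lower bound. The lowest of all signals was 0.043, so a signal above 0 does not show that a gene was expressed. Array signals are not per length and were not compared between genes. Depth does not apply to arrays, and their number limits the precision.

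bFGF raised 46 genes (0.233% of the 19775 tested) and lowered 20 (0.101%), together 66 genes (0.334%). Genes that rose included ADGRL4, NT5E and DKK2, the connective tissue genes LOX, PRRX1 and LGALS1, the coagulation inhibitors TFPI and TFPI2, and the ERK-linked genes IER3, ETV4 and PHLDA1. Genes that fell included the retinaldehyde dehydrogenases ALDH1A1 and ALDH1A3, the lens and pigment genes FOXE3 and TYRP1, and the chemokine CCL2. Changes of the genes that rose were 0.57 to 3.05 on the log2(signal + 16) scale, and those of the genes that fell were -0.67 to -2.27. A gene was called where limma's adjusted p for bFGF minus untreated was under 0.05, with day and pool number as terms. This fit had no term for a bFGF effect that differs between days. A gap between days therefore added to the SE, and calls favoured genes with like changes at both days. Of the 46, 31 changed by at least 1 on this scale, and of the 20, 13 changed by -1 or below; the scale understates the change of dim genes. Without pool number as a term 21 genes were called higher and 8 lower.

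Arrays of the same day and pool number form 6 pairs of a bFGF and an untreated array. All 46 genes that rose were higher with bFGF in 6 of 6 pairs, a pattern that 2.65% of all genes had, and all 20 that fell were lower in 6 of 6 pairs, against 3.34% of all genes. For 31 of the 66 called genes all 6 bFGF signals lay apart from all 6 untreated signals, a pattern held by 0.379% of all genes. The calls came from these same arrays and pool numbers. Both patterns therefore largely follow from the selection and are not separate support.

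ADGRL4 had the largest increase. It encodes an adhesion G protein-coupled receptor known from endothelial cells. Its signals with bFGF were 299, 204 and 306 at day 10 and 193, 251 and 129 at day 17. Without bFGF they were 24.1, 3.13 and 20.3 at day 10 and 8.80, 6.68 and 19.3 at day 17. The lowest bFGF array was above the highest untreated array, and the change was 3.05 ± 0.22 (SE, adjusted p = 0.000433). The level before treatment, at day 6, was 6.48 ± 7.68 (SD, n = 3).

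DKK2, a secreted modulator of Wnt signalling, had signals of 131, 106 and 218 with bFGF at day 10 and 170.3, 300.3 and 234 at day 17. Untreated arrays held 13.9, 15.6 and 27.4 at day 10 and 42.5, 32.4 and 58.6 at day 17. The arms did not overlap, and the change was 2.13 ± 0.16 (adjusted p = 0.000433). NT5E encodes CD73, the cell surface enzyme that makes adenosine from AMP. Its signals with bFGF were 66.3, 124 and 68.8 at day 10 and 87.0, 91.8 and 68.2 at day 17. Untreated arrays held 2.53, 4.15 and 19.4 at day 10 and 2.71, 13.0 and 1.89 at day 17. Every untreated NT5E signal lay below the median of the arrays, and the change was 2.13 ± 0.19 (adjusted p = 0.00102). All 3 genes, which were given as markers of the comparison, were in every pair higher with bFGF.

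TM4SF1, a tetraspanin-like membrane protein of the L6 family, had signals of 457, 514 and 546 with bFGF at day 10 and 429, 501 and 437 at day 17. Its untreated signals were 5.35, 104 and 53.5 at day 10 and 63.4, 130.4 and 55.2 at day 17. Its bFGF signals varied little within or between days while the untreated ones varied widely, and the change was 2.77 ± 0.30 (adjusted p = 0.00389). LOX, the enzyme that crosslinks collagen and elastin, had signals of 268, 276 and 319 with bFGF at day 10 and 525, 731 and 686 at day 17. Untreated LOX signals were 29.5, 39.8 and 25.1 at day 10 and 173, 190.1 and 139 at day 17. LOX was thus higher at day 17 than at day 10 in both arms, and higher with bFGF at both days, by 2.27 ± 0.17 (adjusted p = 0.000433). PRRX1, a homeobox factor of mesenchyme, had signals of 65.2, 81.4 and 64.5 with bFGF at day 10 and 426, 227 and 323 at day 17. Its untreated signals were 27.01, 11.9 and 4.05 at day 10 and 70.1, 55.3 and 48.0 at day 17. The arms lay apart within each day, although bFGF at day 10 overlapped with untreated at day 17, and the change was 1.88 ± 0.19 (adjusted p = 0.00186).

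**Figure D1:**
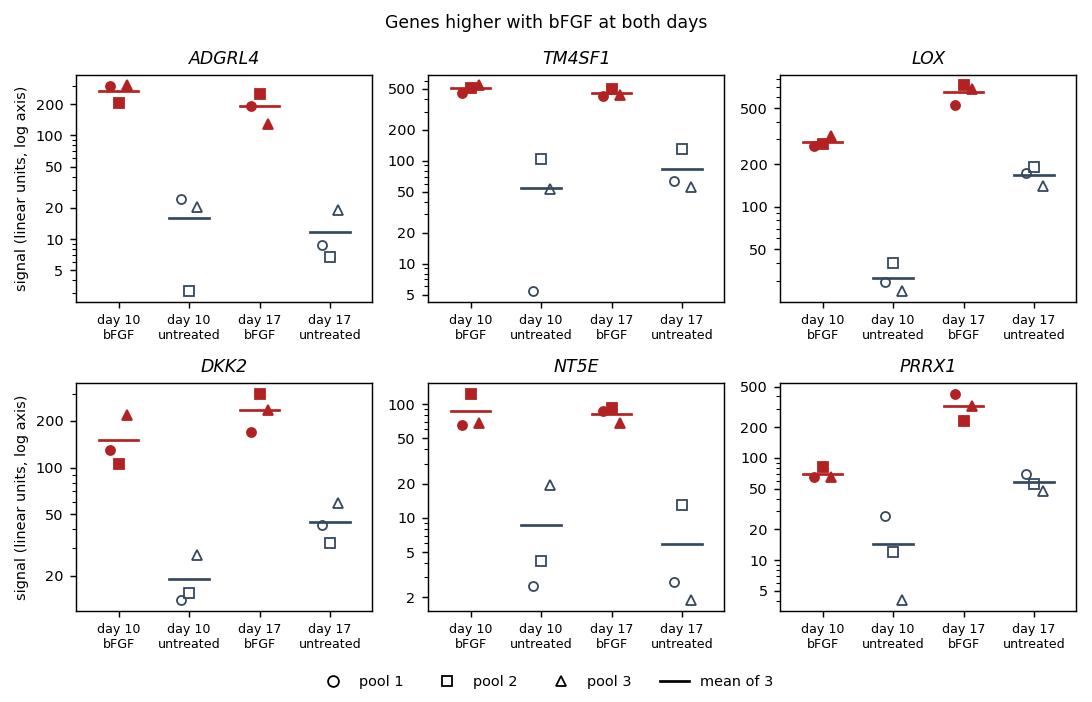
Signal (linear units, log axis) of 6 genes that rose, in the 3 arrays of each group, with symbols for the pool number and a line for the mean of 3. In each panel the bFGF arrays of a day lie above the untreated arrays of the same day; for ADGRL4 the bFGF signals run from 129 to 306 and the untreated signals from 3.13 to 24.1.

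The upstream sequence of genes that rose together is shown next, because ERK signalling is known to act through AP-1 and ETS factors. RefSeq promoter entries (GRCh38.p14) matched 36 of the 46 genes that rose and 13 of the 20 that fell, and the 250 bases before each annotated start were searched on both strands. A gene with several starts was counted if any of them held the letters. RUNX2 and SHC1 lacked the AP-1 letters at another of their starts. In TGANTCA the middle letter N is any base, and it was A in TFPI2 and T at the second place in EMP1. The AP-1 motif TGANTCA lay upstream of 5 of the 36 (13.9%), namely ADGRL4, EMP1, RUNX2, SHC1 and TFPI2 (EMP1, RUNX2 and SHC1 were named after values were seen), and of 0 of the 13, against 7.07% of the 15384 tested genes with an entry. The ETS motif CCGGAAGT lay upstream of 2.78% of the genes that rose and 7.69% of those that fell, against 5.88% of all. The CRE motif TGACGTCA was in none of either set and in 2.81% of all, and the GC box GGGCGG was in 77.8%, 53.8% and 62.3%. None of these motifs contains another. A match is a description of letters, not a bound site. The stretches below belong to 3 genes with the AP-1 letters, written in capitals, and to NT5E, which has none of the AP-1, ETS or CRE letters. They lie at chr1:79006731-79006980 on the minus strand (ADGRL4), chr7:93890754-93891003 on the minus strand (TFPI2), chr12:13196476-13196725 on the plus strand (EMP1) and chr6:85449833-85450082 on the plus strand (NT5E), and all are written 5′ to 3′ towards the start.
ADGRL4: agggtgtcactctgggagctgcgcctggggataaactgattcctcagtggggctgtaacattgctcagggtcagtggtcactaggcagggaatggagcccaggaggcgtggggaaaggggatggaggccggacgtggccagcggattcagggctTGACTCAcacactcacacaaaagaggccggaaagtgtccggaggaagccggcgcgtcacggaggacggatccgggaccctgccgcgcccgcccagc
TFPI2: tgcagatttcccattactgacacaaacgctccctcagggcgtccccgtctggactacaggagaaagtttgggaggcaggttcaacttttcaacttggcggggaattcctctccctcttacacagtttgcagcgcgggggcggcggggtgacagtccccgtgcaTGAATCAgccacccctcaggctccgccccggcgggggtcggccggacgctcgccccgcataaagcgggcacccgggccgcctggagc
EMP1: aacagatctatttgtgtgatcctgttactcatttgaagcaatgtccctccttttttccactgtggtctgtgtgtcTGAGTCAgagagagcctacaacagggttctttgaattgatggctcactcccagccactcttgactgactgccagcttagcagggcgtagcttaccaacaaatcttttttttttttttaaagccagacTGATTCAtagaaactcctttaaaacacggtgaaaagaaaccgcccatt
NT5E: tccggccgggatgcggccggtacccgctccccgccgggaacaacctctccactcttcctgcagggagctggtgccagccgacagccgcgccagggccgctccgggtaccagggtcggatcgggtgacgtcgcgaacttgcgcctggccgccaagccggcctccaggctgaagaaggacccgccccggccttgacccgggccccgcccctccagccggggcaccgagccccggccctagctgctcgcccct
The capitals begin 96 bases before the start in ADGRL4 and 87 bases before it in TFPI2. EMP1 holds the letters at 175 bases and again nearer the start.

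The other genes among the 15 largest increases covered several roles. LGI1, a secreted protein of neurons, had signals of 430.0 to 815 with bFGF (median 578) and of 78.4 to 223 without it (median 169), a change of 1.82 ± 0.21 (adjusted p = 0.00455). PHLDA2, a growth-restraining gene of the placenta, had 395 to 787 (median 496) with bFGF and 97.9 to 191 (median 144) without it, a change of 1.75 ± 0.19 (adjusted p = 0.00389). With its probe sets averaged, PHLDA2 had a difference of 0.59 and was not called. LGALS1, the galactose-binding lectin galectin, had 423 to 1666 (median 903) with bFGF and 104 to 688 (median 233) without it, and its arms overlapped between days but not within either day. Its change was 1.72 ± 0.23 (adjusted p = 0.00888). TFPI, which inhibits the tissue factor pathway of coagulation, had 496 to 1039 (median 643) with bFGF and 134 to 326 (median 240.5) without it, with no overlap and a change of 1.53 ± 0.13 (adjusted p = 0.000676). Its relative TFPI2 had 721, 468 and 1042 with bFGF at day 10, against 177, 75.3 and 202 without it, and 739, 583 and 1066 with bFGF at day 17, against 451, 236 and 767 without it. TFPI2 was therefore apart at day 10 only, with a change of 1.51 ± 0.25 over both days (adjusted p = 0.0317).

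Further genes that rose, named here after their values were seen, were TM4SF18, a second member of the TM4SF1 family (1.43 ± 0.14, adjusted p = 0.00159), and GNG11, a G protein gamma subunit (1.42 ± 0.12, adjusted p = 0.000705). The innate immune receptor TLR4 rose by 1.34 ± 0.16 (adjusted p = 0.00616) and the hyaluronan receptor CD44 by 1.18 ± 0.15 (adjusted p = 0.00639), although CD44 had a difference of 0.40 and was not called with its probe sets averaged. EDIL3, a matrix protein that binds integrins, had close changes at both days, 0.77 ± 0.01 at day 10 and 0.78 ± 0.06 at day 17 (SD over 3 pairs each). It rose by 0.78 ± 0.09 (SE, adjusted p = 0.00455), and its signals were 620.2 to 872 with bFGF and 363 to 509.6 without it. With its probe sets averaged, EDIL3 had a difference of 0.41 and was not called. The pairs of EDIL3 were closer to each other than those of genes with larger changes such as TM4SF1. SHC1, an adaptor that links receptor tyrosine kinases to RAS, had the smallest change among the genes that rose, 0.57 ± 0.10 (adjusted p = 0.0414).

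**Figure D2:**
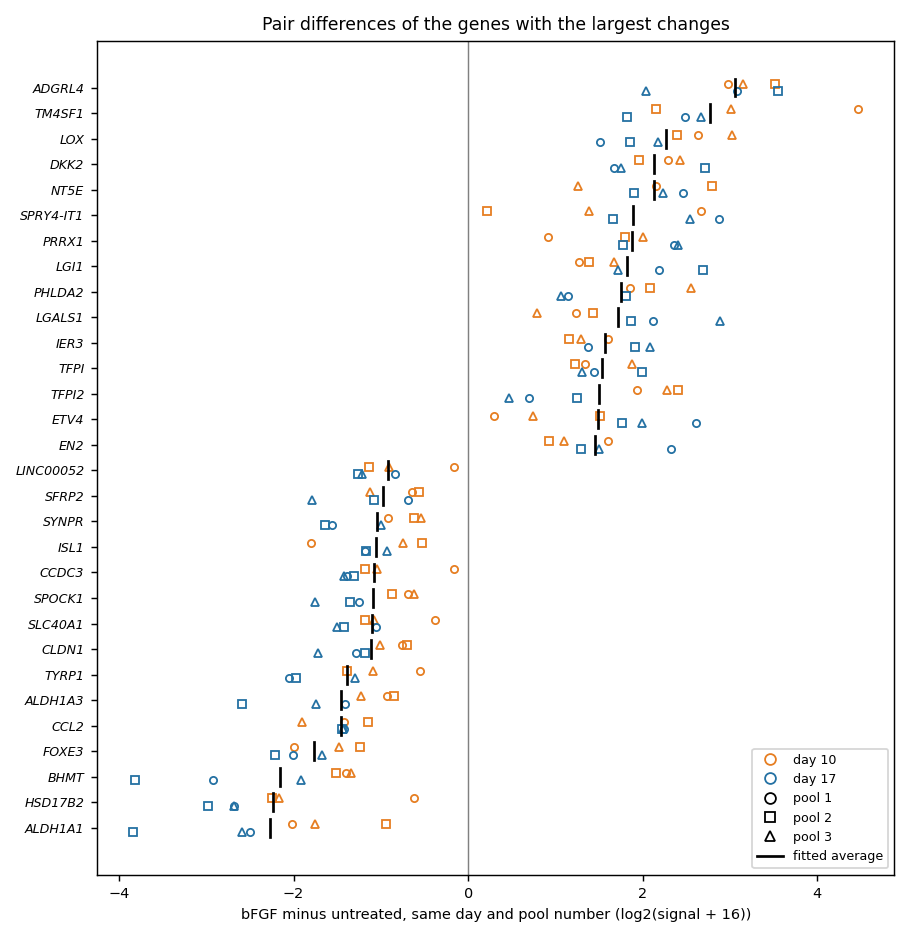
Difference of bFGF minus untreated on the log2(signal + 16) scale for the 15 largest increases and the 15 largest decreases that were called, 1 point per pair of equal day and pool number. Colour gives the day and symbol shape the pool; the black bar is the fitted average, from 3.05 for ADGRL4 to -2.27 for ALDH1A1, and for each gene all 6 points lie on 1 side of 0.

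Of 22 genes of the FGF and ERK feedback list, 3 rose (IER3, ETV4 and PHLDA1) and 0 fell, where 0.233% of all genes rose. The list's median change was 0.45, against -0.01 over all genes, and 10 of the 22 (45.5%) were higher in all 6 pairs, against 2.65% of all genes. IER3, an immediate early gene, had signals of 2003, 1148 and 1645 with bFGF at day 10, against 649.7, 506 and 661 without it. At day 17 it had 2511, 2536 and 4965 with bFGF, against 962, 665 and 1161 without it. The arms lay apart at both days and the change was 1.57 ± 0.16 (adjusted p = 0.00249). PHLDA1 had 267 to 595 (median 475) with bFGF and 138 to 217 (median 166) without it, with no overlap and a change of 1.26 ± 0.11 (adjusted p = 0.00102). ETV4 had 110.2, 105 and 192 with bFGF at day 10, against 86.4, 26.7 and 108 without it, and 237, 120.2 and 212 with bFGF at day 17, against 25.4, 24.1 and 41.5 without it. Its arms overlapped at day 10 and lay apart at day 17, with a change of 1.49 ± 0.26 (adjusted p = 0.0436).

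The feedback inhibitors DUSP6, SPRY4, SPRY1 and SPRY2 missed the threshold over both days. Of the 27 alternative analyses, DUSP6 was called in 4, SPRY4 in 6 and SPRY1 and SPRY2 in 1 each. DUSP6, the ERK phosphatase, had 3384, 1775 and 4663 with bFGF at day 10, against 2219.85, 1208 and 2685 without it. At day 17 it had 4082, 2397 and 3642 with bFGF, against 413, 386 and 581 without it. DUSP6 thus overlapped between arms at day 10 and lay apart at day 17, with changes of 0.65 ± 0.13 and 2.82 ± 0.38 (SD over 3 pairs each), and 1.73 ± 0.36 over both (SE, adjusted p = 0.0952). Differences that missed the threshold were 1.45 ± 0.27 for SPRY4 (adjusted p = 0.0605), for SPRY1 1.33 ± 0.35 (adjusted p = 0.195) and for SPRY2 0.97 ± 0.24 (adjusted p = 0.174), each in the same direction in 6 of 6 pairs. SPRY1 and SPRY2 lie outside the naming rule and were named after their values were seen. SPRY4-IT1, a noncoding transcript from within a SPRY4 intron, was called at 1.89 ± 0.31 (adjusted p = 0.0317), and its probe set cannot tell it apart from unspliced SPRY4 RNA.

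**Figure D3:**
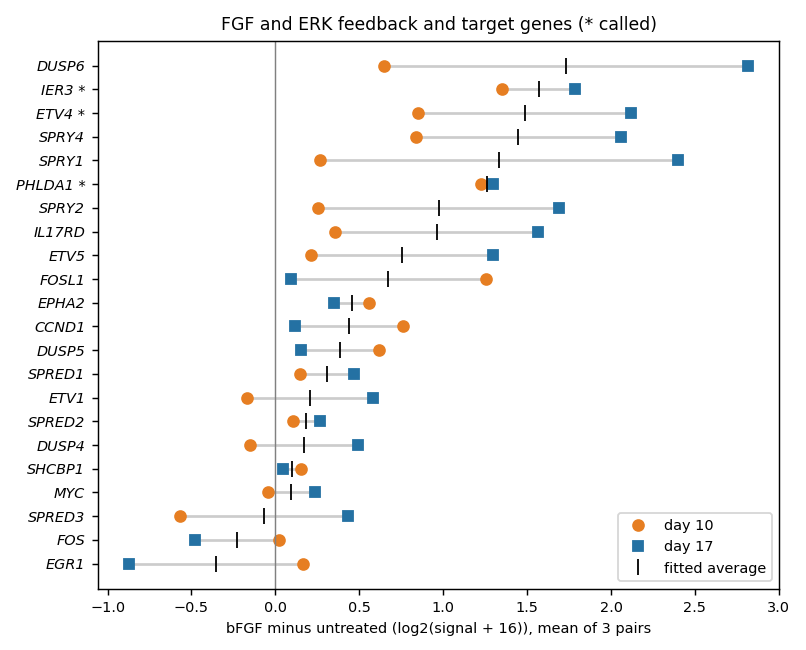
Change with bFGF on the log2(signal + 16) scale of the 22 genes of the FGF and ERK feedback list, with circles for day 10, squares for day 17 (each the mean of 3 pairs) and a tick for the fitted average. The 3 called genes carry an asterisk; DUSP6 and SPRY1 show the widest gaps, at 0.65 and 0.26 at day 10 and 2.82 and 2.40 at day 17.

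Among the 25 FGF ligands and receptors 0 passed the test, with limma, and 9 had an unadjusted p under 0.05, 3 of them higher and 6 lower. Of all 19775 genes, 1742 had an unadjusted p under 0.05. FGF18, an FGF ligand, had 51.7, 65.9 and 70.2 with bFGF at day 10, against 37.6, 53.3 and 35.7 without it, and 502, 244 and 575 with bFGF at day 17, against 112, 70.9 and 68.5 without it. It was higher in 6 of 6 pairs, and the difference of 1.29 ± 0.33 had an adjusted p of 0.182. FGFR3, an FGF receptor, had a difference of -0.62 ± 0.24 (adjusted p = 0.454) and was lower in all but 1 pair.

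Of 22 genes of mesenchyme and smooth muscle, 2 rose (NT5E and PRRX1) and 0 fell, where 0.233% of all genes rose, and the median change was 0.23. NT5E was given as a marker of the comparison, so it adds no weight to this count. Higher in all 6 pairs were 6 of the 22 (27.3%), against 2.65% of all genes. TWIST1, a transcription factor of mesenchyme and neural crest, had 91.1 to 412 (median 164) with bFGF and 21.7 to 68.2 (median 52.5) without it. Its arms did not overlap, and the difference of 1.62 ± 0.32 had an adjusted p of 0.0785. CAV1, the coat protein of caveolae, had a difference of 0.67 ± 0.17 (adjusted p = 0.175). The 8 mesenchymal marker genes together summed to 8454 to 9650 with bFGF and 6739 to 7931 without it at day 10. At day 17 they summed to 12526 to 15998 with bFGF and 13076 to 16611 without it. The sum was higher with bFGF in 3 of 6 pairs, all of them of day 10. In each pair of day 17 the sum was lower with bFGF, although the arms overlapped. The change of PRRX1 was in contrast larger at day 17 than at day 10. COL1A1 and TAGLN, a collagen chain and a smooth muscle actin-binding protein, had adjusted p of 0.861 and 0.100, and DCN and COL3A1 had differences of -0.66 ± 0.18 and -0.60 ± 0.18 (adjusted p = 0.242 and 0.300). The part of mesenchymal cells in these changes was not tested, and in bulk RNA more cells of a type and more RNA per cell cannot be told apart.

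Of 25 genes of the extracellular matrix and its remodelling, 3 rose (LOX, PLAU and MMP2) and 0 fell, where 0.233% of all genes rose, and the median change was 0.16. In all 6 pairs 7 of the 25 (28%) were higher, against 2.65% of all genes. PLAU encodes urokinase, which activates plasminogen, and its signals were 276, 195 and 334 with bFGF at day 10, against 110.1, 65.8 and 78.0 without it. At day 17 they were 203, 103 and 162 with bFGF, against 85.5, 84.0 and 92.2 without it, and the change was 1.09 ± 0.18 (adjusted p = 0.0316). MMP2, a gelatin-degrading protease, had 499.9 to 1445 (median 941) with bFGF and 200.4 to 681 (median 506) without it, a change of 1.01 ± 0.14 (adjusted p = 0.0103). MMP2 was not called with its probe sets averaged, where the difference was 0.31, without pool number as a term, or with the pair as a random block. HAPLN1, a protein that links hyaluronan to proteoglycans, had a difference of 1.47 ± 0.29 (adjusted p = 0.0805). The median over the list was 0.51 at day 10 and -0.07 at day 17.

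Of 19 endothelial and blood genes, 2 rose (ADGRL4 and KDR), where 0.233% of all genes rose, and 0 fell, and the median change was 0.11. ADGRL4 was given as a marker of the comparison, so it adds no weight to this count. KDR, the main receptor for VEGF, had 127, 230.4 and 162 with bFGF at day 10, against 89.8, 129 and 58.7 without it. At day 17 it had 168, 240.3 and 128 with bFGF, against 59.4, 111 and 91.2 without it. Every pair was higher with bFGF, the arms overlapped by 1 untreated array at day 10, and the change was 0.86 ± 0.14 (adjusted p = 0.0293). ESAM, an endothelial adhesion molecule, lay apart at low signals, 7.35 to 35.6 with bFGF and 2.00 to 6.49 without it (0.86 ± 0.20, adjusted p = 0.129). CDH5, the cadherin of endothelial junctions, had 22.4 to 92.1 with bFGF and 5.51 to 78.8 without it (0.68 ± 0.26, adjusted p = 0.459).

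The 9 endothelial and blood markers, of which KDR was the 1 called, summed to 547 to 746 with bFGF and 340 to 638 without it at day 10. At day 17 they summed to 377 to 721 with bFGF and 292 to 525 without it, and the sum was higher with bFGF in 6 of 6 pairs. Without KDR the sum was 397 to 516 with bFGF and 281 to 509 without it at day 10, and 209 to 481 with bFGF and 233 to 414 without it at day 17. This sum without KDR was higher with bFGF in 5 of 6 pairs. PECAM1, an adhesion molecule of endothelium, had 29.3 to 84.9 with bFGF and 21.9 to 89.1 without it, and VWF had 5.15 to 50.6 with bFGF and 3.59 to 39.0 without it. EMCN had signals down to 0.71 in both arms. Changes of the 9 markers other than KDR ranged from -0.13 for PECAM1 to 0.68 for CDH5. The part of endothelial cells in the rise of ADGRL4 and KDR was not tested.

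SNAI2, a zinc finger factor of neural crest and mesenchyme, was the 1 called gene of 12 in the neural crest list, where 0.233% of all genes rose. It had 387 to 645 (median 472) with bFGF and 182 to 289 (median 247) without it, with no overlap and a change of 0.98 ± 0.14 (adjusted p = 0.0173). SOX10, which marks migrating crest, had a difference of -0.38 ± 0.28 (adjusted p = 0.797), and the 4 crest markers without SNAI2 summed higher with bFGF in 2 of 6 pairs. The part of crest cells in the rise of SNAI2 was not tested.

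In the midbrain and hindbrain list, 1 of 15 rose (EN2) and 0 fell, where 0.233% of all genes rose, and the median change was 0.26. EN2, a homeobox gene of the midbrain and hindbrain, had 36.0, 30.3 and 22.8 with bFGF at day 10, against 1.13, 8.34 and 2.13 without it. Its day 17 signals were 126, 90.5 and 62.2 with bFGF, against 12.2, 27.3 and 11.7 without it. The arms lay apart at both days and the change was 1.46 ± 0.17 (adjusted p = 0.00455). GBX2, a hindbrain factor, had a difference of 1.01 ± 0.23 (adjusted p = 0.119) and was higher in all 6 pairs. PAX5, a midbrain factor, had a difference of 0.98 ± 0.32 (adjusted p = 0.345), with 0.16 ± 0.32 at day 10 and 1.79 ± 0.78 at day 17.

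Among the called genes, the 3 largest falls with bFGF were those of enzymes. ALDH1A1, which makes retinoic acid from retinaldehyde, had 3.02, 106 and 19.2 with bFGF at day 10, against 61.1, 218 and 102 without it. Signals at day 17 were 57.9, 43.4 and 47.9 with bFGF, against 402, 833 and 368 without it. The arms lay apart at day 17 but not at day 10, and the change was -2.27 ± 0.36 (adjusted p = 0.0269). Day 6 held 9.94 ± 8.63 (SD, n = 3). HSD17B2, which oxidises estradiol and testosterone, had 28.6, 8.70 and 17.5 with bFGF at day 10, against 52.4, 102 and 135 without it. On day 17 it had 15.04, 27.8 and 42.9 with bFGF, against 183, 331 and 363 without it. No array of the arms overlapped, and the change was -2.23 ± 0.27 (adjusted p = 0.00584). BHMT, a methyltransferase that remakes methionine from homocysteine, had 5.39 to 42.0 (median 10.2) with bFGF and 52.8 to 316 (median 115) without it, a change of -2.15 ± 0.31 (adjusted p = 0.0147).

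In the retinoic acid list, 2 of 13 fell (ALDH1A1 and ALDH1A3) and 0 rose, where 0.101% of all genes fell, and the median change was -0.18. A control list of 17 ribosomal protein genes, with 0 called, had a median change of -0.19. ALDH1A3 had 50.5, 117 and 63.7 with bFGF at day 10, against 111, 224 and 170.3 without it. By day 17 it had 94.5, 47.6 and 82.4 with bFGF, against 278, 368 and 313 without it, and the change was -1.46 ± 0.25 (adjusted p = 0.0383). As with ALDH1A1, its arms overlapped at day 10 and lay apart at day 17. The receptor RARG had a difference of 0.64 ± 0.24 (adjusted p = 0.437) and the carrier RBP4 of -0.50 ± 0.48 (adjusted p = 0.865).

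Of 18 genes of choroid plexus, retina and lens, 2 fell (FOXE3 and TYRP1), where 0.101% of all genes fell, and 0 rose. Their median change was -0.22, against -0.19 in the ribosomal control list. FOXE3, a forkhead factor of the lens, had 4.67, 36.5 and 32.1 with bFGF at day 10, against 66.2, 108 and 118 without it. The day 17 signals were 21.6, 10.7 and 31.1 with bFGF, against 135, 108 and 134 without it, and the arms did not overlap (-1.77 ± 0.22, adjusted p = 0.00617). TYRP1, an enzyme of melanin synthesis in pigment cells, had 21.4, 30.9 and 16.5 with bFGF at day 10, against 38.7, 106 and 53.2 without it. Its day 17 signals were 47.4, 85.8 and 71.1 with bFGF, against 246, 382 and 198 without it, and the change was -1.39 ± 0.18 (adjusted p = 0.0079). TYRP1 was higher at day 17 than at day 10 in both arms and lower with bFGF at both days. The lens crystallin CRYAA had a difference of -1.06 ± 0.22 (adjusted p = 0.0868) and CRYAB, a crystallin and small heat shock protein, of -1.35 ± 0.40 (adjusted p = 0.282).

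**Figure D4:**
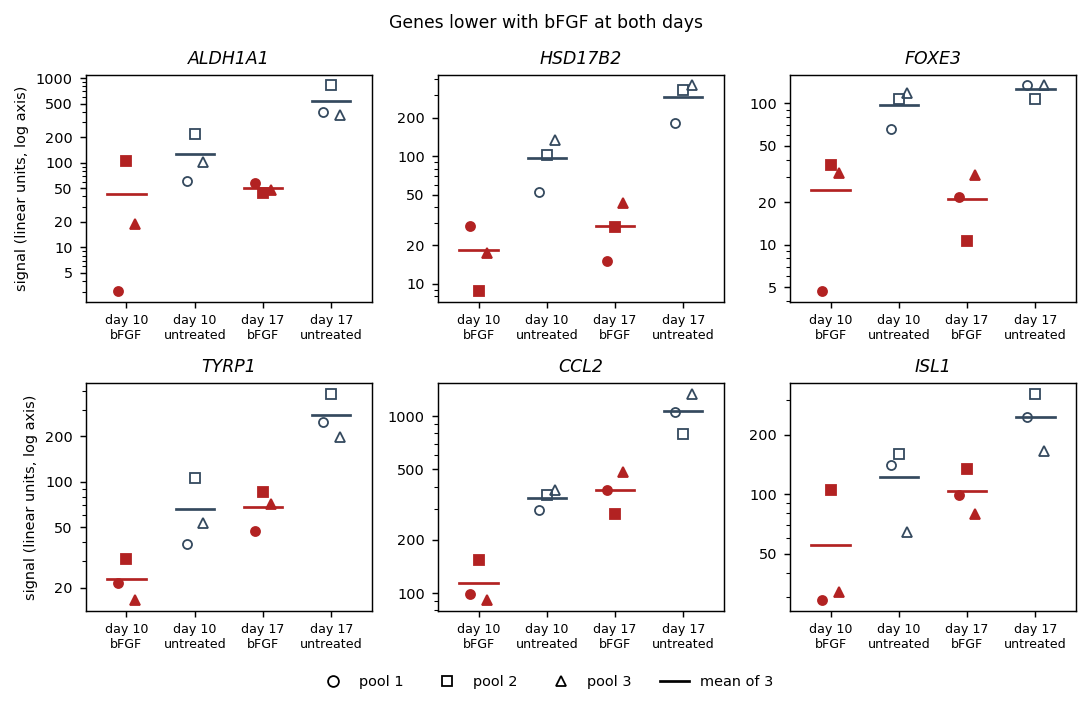
Signal (linear units, log axis) of 6 genes that fell, in the 3 arrays of each group, with symbols for the pool number and a line for the mean of 3. At day 17 the bFGF arrays of each gene lie below the untreated arrays; at day 10 ALDH1A1 and ISL1 overlap between arms.

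CCL2, which attracts monocytes, had 99.5, 154 and 91.3 with bFGF at day 10, against 294, 359 and 384 without it. Signals at day 17 were 383, 282 and 486 with bFGF, against 1056, 793 and 1340.2 without it. CCL2 had changes at day 10 and day 17 of -1.49 ± 0.38 and -1.43 ± 0.01 (SD over 3 pairs each), and over both by -1.46 ± 0.17 (SE, adjusted p = 0.00584). CLDN1, a tight junction protein, fell by 1.11 (SE 0.15, adjusted p = 0.00888) and the iron exporter SLC40A1 by 1.10 (SE 0.18, adjusted p = 0.0269). SPOCK1, a secreted proteoglycan, had 226 to 262 (median 254) with bFGF and 373 to 904 (median 544) without it, a change of -1.09 ± 0.15 (adjusted p = 0.0128). The untreated SPOCK1 signals spread far more than those with bFGF. CCDC3, a secreted protein, changed by -1.08 ± 0.17 (adjusted p = 0.0269) and the noncoding RNA LINC00052 by -0.92 ± 0.16 (adjusted p = 0.0497).

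SFRP2, a secreted Wnt antagonist, had signals of 3368, 4105 and 4353 with bFGF at day 10, against 5258, 6061 and 9510.5 without it. On day 17 it had 3250.0, 2482 and 2782 with bFGF, against 5244, 5250.2 and 9651 without it. No arrays overlapped, and the change was -0.98 ± 0.16 (adjusted p = 0.0343). In the Wnt list of 25, DKK2 rose and SFRP2 fell, where 0.233% of all genes rose and 0.101% fell, and the median change was 0.05. DKK2 was given as a marker of the comparison, so it adds no weight to this count.

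Among 19 early neuroectoderm genes 0 rose and 1 fell, against 0.101% of all genes that fell. Their median change was -0.11, against -0.19 in the ribosomal control list. MEIS1, a homeobox cofactor, was the 1 that fell, with 261 to 407 (median 355) with bFGF and 392 to 710.0 (median 585) without it (-0.67 ± 0.11, adjusted p = 0.0295). PAX6, a paired-box factor of neuroepithelium and eye, had 1412, 1534 and 1446 with bFGF at day 10, against 1875, 1869.8 and 2585 without it. By day 17 it had 1153, 1011 and 1499 with bFGF, against 1744, 1946 and 2951 without it. The arms of PAX6 did not overlap, and the difference of -0.67 ± 0.13 had an adjusted p of 0.0694. SOX3, a factor of neural precursors, had a difference of -0.63 ± 0.19 (adjusted p = 0.284) and the Notch target HES5 of -0.61 ± 0.17 (adjusted p = 0.234). SOX1, SOX2, NES, FABP7 and CDH2 had adjusted p of 0.674 or above, and SOX2 was lower with bFGF in all 6 pairs. ZIC1 had a difference of 0.47 ± 0.24 (adjusted p = 0.646) and was higher in 5 of 6 pairs. Lower in all 6 pairs were 5 of the 19 genes (26.3%), against 3.34% of all genes, and 1 of the 19 was higher in all 6.

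In the neuron list of 25, 0 rose and 1 fell, against 0.101% of all genes that fell, and the median change was -0.17. ISL1, a LIM homeobox factor of motor neurons and retina, had 29.0, 105 and 32.1 with bFGF at day 10, against 141, 159.9 and 64.7 without it. The day 17 signals were 99.6, 134 and 79.2 with bFGF, against 246, 323 and 165 without it, and the change was -1.06 ± 0.16 (adjusted p = 0.0226). NEFM had the largest positive difference of the list, 0.77, and was not called. It was higher with bFGF in all 6 pairs, with day 17 signals of 1966, 1179 and 396, against 685, 460 and 338 without it. Of the 25 genes, 8 had a positive and 17 a negative change. In the ribosomal control list 1 of 17 was positive and 16 were negative, with a median of -0.19. Signs and medians of this size were thus not particular to neuronal genes. SYNPR and STMN4 are not in the neuron list. SYNPR, a synaptic vesicle protein, fell by 1.05 (SE 0.16, adjusted p = 0.0226). STMN4, a neuronal tubulin-binding protein named after its values were seen, had 69.9 to 238 (median 163) with bFGF and 121 to 523 (median 331) without it, a change of -0.92 ± 0.11 (adjusted p = 0.00617). The summed signal of 4 neuronal markers was higher with bFGF in 1 of 6 pairs. It was 6257 to 10891 with bFGF and 9694 to 12286 without it at day 17, and 2896 to 5082 with bFGF and 2843 to 6258 without it at day 10. None of the 4 was called, and the part of neurons in the fall of ISL1, SYNPR and STMN4 was not tested.

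The effects at the 2 days were then compared gene by gene, by the interaction of bFGF with day, for which 0 genes were called (0%) with limma. The labelled dose unit also differs between the days, and bFGF from day 6 acted longer by day 17. Day, dose and length of exposure cannot be told apart here. The smallest adjusted p was 0.0721, and 1703 genes had an unadjusted p under 0.05, among them 15 of the 66 called genes. Of the genes that rose, 31 of 46 had the larger change at day 17, with medians of 1.16 at day 10 and 1.21 at day 17. Of the genes that fell, 19 of 20 had the larger fall at day 17, with medians of -0.82 and -1.38. Of all genes, 50.2% had a day 17 change above the day 10 change. Across all 19775 genes the day 10 and day 17 changes correlated weakly (Pearson r = 0.078, a description across genes that share pools).

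Genes with the largest gap between days are given as values. SPRY1 had 1019, 858 and 1478 with bFGF at day 10, against 859, 747 and 1152 without it, and 1522, 1477 and 1922 with bFGF at day 17, against 364, 221 and 321 without it. The untreated SPRY1 signals at day 17 were near those of day 6 (271 ± 54.9, SD, n = 3) and below those of untreated day 10. The change at day 17 minus that at day 10 was 2.14 ± 0.24 (SE, adjusted p = 0.0721) for SPRY1 and 2.17 ± 0.29 (adjusted p = 0.118) for DUSP6. In the ERK list 15 of 22 genes (68.2%) had a day 17 change above that of day 10, against 50.2% of all genes. The ribosomal control list had 14 of 17 (82.4%), so this count was not particular to ERK genes. The ERK list's medians were 0.26 at day 10 and 0.48 at day 17.

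TTR, the thyroxine carrier of choroid plexus and liver, ran the other way, and was named after its values were seen. It had 37.7, 30.4 and 162 with bFGF at day 10, against 14.1, 14.0 and 40.2 without it. Its day 17 signals were 76.7, 37.0 and 189.7 with bFGF, against 335, 176 and 657 without it. The TTR difference was 1.04 ± 0.55 at day 10 and -1.83 ± 0.11 at day 17 (SD over 3 pairs each), a gap of -2.88 ± 0.33 (SE, adjusted p = 0.0721). CRYAB differed by -0.15 ± 0.36 between arms at day 10 and by -2.55 ± 0.49 at day 17, a gap of -2.41 ± 0.32 (adjusted p = 0.118). AFP, a fetal serum protein of liver and yolk sac, had 44.2, 112 and 87.9 with bFGF at day 10, against 59.6, 189 and 38.9 without it. Signals at day 17 were 117, 143 and 122 with bFGF, against 659, 834 and 997 without it, a gap between days of -2.52 ± 0.49 (adjusted p = 0.241).

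The endoderm, liver and yolk sac list had 0 called genes of 17 over both days. With an unadjusted p under 0.05 it had 3, all lower, against 1742 of all 19775 genes. Its median change was 0.21 at day 10 and -0.79 at day 17. The fibrinogen chain FGA had differences of 0.62 ± 0.98 at day 10 and -2.17 ± 0.23 at day 17, and APOB, the core protein of low-density lipoproteins, of -0.29 ± 0.69 and -1.99 ± 1.04. The 6 endoderm and liver markers summed to 264 to 347 with bFGF and 1078 to 1767 without it at day 17, while at day 10 the sums overlapped, at 172 to 309 with bFGF and 127 to 298 without it. The defining endoderm markers SOX17 and FOXA2 had signals of 10.1 to 42.2 and 1.48 to 37.6 with bFGF, and of 21.7 to 64.8 and 1.82 to 38.6 without it. The part of endoderm-derived cells in these day 17 values was not tested.

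**Figure D5:**
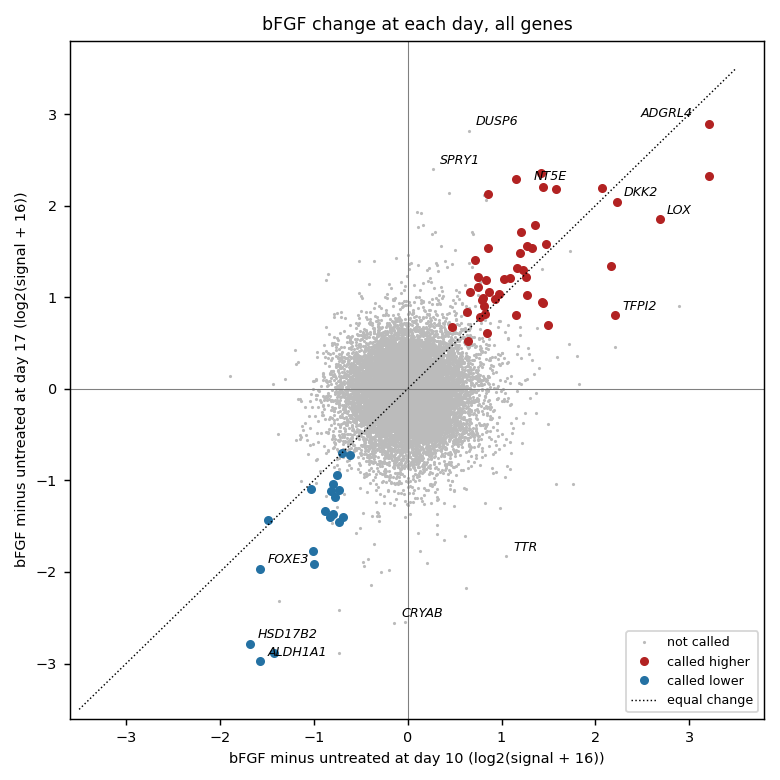
Change with bFGF at day 17 (vertical) against day 10 (horizontal), both as the mean of 3 pairs on the log2(signal + 16) scale, with 1 point per gene for 19775 genes and the dotted line marking equal change. The 46 genes called higher and the 20 called lower moved the same way at both days, while SPRY1, DUSP6, TTR and CRYAB, which were not called, lie away from it.

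Among the other lists, the hypoxia list held ADM, a vasodilator peptide (1.20 ± 0.17, adjusted p = 0.0173), as its 1 called gene of 17. Of all genes 0.233% rose, and the median change of the hypoxia list was -0.09. The surface ectoderm list held GRHL3, an epithelial transcription factor (1.15 ± 0.19, adjusted p = 0.0315), as its 1 called gene of 16, where 0.233% of all genes rose. The median change of this list was -0.06, and 10 of the 16 had a negative change. With limma's unadjusted p under 0.05, 2 of its genes were higher and 4 lower, and CDH1 had the lowest value, -0.73. Cell cycle genes had 0 called of 25 and 0 with an unadjusted p under 0.05, and their changes averaged over both days lay between -0.13 and 0.17. Single pairs varied more. In pool 3, MKI67 differed by 1.07 at day 10 and by -1.74 at day 17, and TOP2A by 1.04 and -1.28. The median of the cell cycle list was -0.12 at day 10 and 0.10 at day 17. For pluripotency genes 0 of 17 were called and 2 had an unadjusted p under 0.05, against 1742 of all 19775 genes. NANOG had 23.5 to 65.8 with bFGF and 5.04 to 34.4 without it (0.83 ± 0.17, adjusted p = 0.0961). In all, 15 of the 28 lists had no called gene, and 44 of the 66 called genes were in no list.

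With 1 array omitted at a time, 31 of the 66 stayed called in every case and the other 35 lost the call in at least 1. Of the 15 largest increases 12 stayed called each time, the exceptions being SPRY4-IT1, TFPI2 and ETV4, with adjusted p of up to 0.118, 0.106 and 0.136. Of the 15 largest decreases only HSD17B2, FOXE3, CCL2, TYRP1 and CLDN1 did so, and ALDH1A1 and ALDH1A3 reached adjusted p of 0.0985 and 0.127. IER3, PHLDA1, LOX, DKK2, NT5E and PRRX1 stayed called, and KDR, PLAU, SNAI2, MEIS1, ADM and GRHL3 did not, with adjusted p of up to 0.0988. ADGRL4 stayed called also when pool 1, 2 or 3 was left out whole. LOX, DKK2 and TM4SF1 lost the call without pool 3, NT5E without pool 1, PRRX1 without pool 2 or 3, and IER3 without any 1 of the 3 pools.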

How the data were processed

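Affymetrix 1-colour arrays of 54675 probe sets measured total RNA pools, whose titles gave group and pool number. The deposited values are 1 linear intensity per probe set and array; that the authors scaled them is read from the equal trimmed means, and the summarisation software is not given in the sources used here. No further normalization was applied, and 0 columns were left unmapped. The platform annotation gave 1 gene for 41097 probe sets, several for 1801 and no name for 11777, and the probe set with the highest mean log2(intensity + 16) over the 18 arrays stood for each of 19775 genes.

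limma 3.58.1 (lmFit, eBayes) in R 4.3.3 was fitted to log2(intensity + 16) of 12 arrays with day, pool number and bFGF as terms, and again with bFGF by day; tests were two-sided and adjusted by Benjamini-Hochberg over all genes, and the code was checked on simulated data. The comparison, the markers and the 28 gene lists were chosen with earlier results of these data known. Named were the 15 largest called increases and decreases moving alike in all 6 pairs, up to 4 members of each list with the largest change, and the 3 markers; called members and cell type markers stand beside the counts they belong to, and others are said to be named after their values were seen. Equal pool numbers pair the arrays: deviations from the group means correlated at 0.317 to 0.668 between arms of the same day with equal numbers, against -0.513 to 0.265 with different numbers. A day 10 bFGF pool whose title says 2 and whose description says 1 was used as pool 2. As alternatives the pseudocount was set to 1 or 64, arrays were quantile-scaled, the dimmer genes were dropped (keeping 60%), the prior was trended and robust, probe sets were averaged per gene or all tested, and blocks were changed. Further fits used all 18 arrays, or left out each array, pool or day.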

Additional observations from a re-analysis of the deposited data

How the results depend on the processing

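The main analysis called 46 genes higher and 20 lower, 66 in all, and 0 for the difference between days. Higher, lower and total counts were 21, 6 and 27 with a pseudocount of 1, and 81, 46 and 127 with 64. They were 85, 49 and 134 in the upper 60% of genes by signal, 102, 60 and 162 with a trended and robust prior, and 88, 54 and 142 with all 18 arrays in the fit. With probe sets averaged per gene 28 were higher and 21 lower. Of the 66 genes 41 stayed called with averaged probe sets and 25 lost the call, among them PHLDA2 (0.59), MMP2 (0.31), CD44 (0.40), EDIL3 (0.41), EMP1 (0.40), RUNX2 (0.10), SPRY4-IT1 (1.12), ALDH1A3 (-0.69), SLC40A1 (-0.61), PLAU, TFPI2, ETV4, MEIS1, STMN4 and LINC00052. TM4SF1, DKK2 (1.12) and NT5E (0.79) stayed called, with values over 1.5 times smaller. Without the replicate block (pool number) they were 21, 8 and 29, with each pair as a replicate block 29, 10 and 39, and with the pair as a random replicate block 57 were higher and 34 lower. Leaving out pool 1, 2 or 3 gave 6, 10 and 4 higher and 1, 3 and 0 lower, or 7, 13 and 4 in total. Day 10 alone and day 17 alone, with 3 arrays an arm, each gave 0. Leaving out 1 array gave 29 to 39 higher, 6 to 21 lower, 35 to 54 in total and 0 to 1 for the difference between days; the total was lowest without day 17 bFGF pool 1. For the difference between days the counts were 14 with a pseudocount of 64, 14 in the upper 60% of genes, 23 with the trended and robust prior, 1 with the mean of probe sets and 1 with all 18 arrays. At day 10 alone the sign of 6 named genes that were not called turned: TNC 0.31, AHSG 0.21, FGA 0.62, CDH1 0.11, RBP4 0.61 and TTR 1.04. The cause of these shifts was not tested, beyond fewer arrays or genes entering some fits. The medians of 10 of the 28 lists moved by more than 1 SD over pairs in at least 1 alternative. Without detection calls the signals of dim genes such as NT5E have no bound, the scale understates their changes, and few arrays limit the precision.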
